A study of Mus musculus with 6 samples.

Results

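The 9 genes described here encode the machinery by which a cell takes up transferrin-bound iron and builds it into heme. They are Alas1, Alad, Uros, Urod, Cpox, Ppox and Fech, 7 enzymes of heme synthesis, Abcb10, a transporter of the inner mitochondrial membrane, and Tfrc, transferrin receptor 1. They were chosen by gene symbol, and all 9 were found among the 14005 genes listed. RNA had been sequenced from FLK1+ mesodermal cells isolated on magnetic columns from embryoid bodies (EBs) at day 3.5 of mouse embryonic stem (ES) cell differentiation. The WT group had 3 libraries and the Scl-/- group, in which the gene of the blood transcription factor SCL (Tal1) is disrupted in the ES cells, had 3 libraries from as many independent differentiations. The WT line was J1, and each genotype was represented by 1 ES cell line, so that genotype and line cannot be told apart. The strain label was C57Bl/6 X Sv129 for the 3 libraries WT 1, WT 2 and Scl-/- 1, and read Sv130 for Scl-/- 2, Sv131 for WT 3 and Sv132 for Scl-/- 3. In the order listed the number stays at 129 for 3 samples and then goes up by 1 from sample to sample. Whether the numbers mark a real difference in strain is not known. Both lines were grown without a treatment named in the labels, in medium that contained transferrin.

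Heme synthesis starts in mitochondria, where ALAS joins glycine to succinyl-CoA. It passes through the cytosol from ALAD to UROD and returns to mitochondria for CPOX, PPOX and FECH, which inserts the iron. ALAS1 is the form found in most cells and ALAS2 the form of erythroid cells, in which demand for heme and for TFRC-mediated iron uptake is highest. In the mouse the first erythroid cells arise from FLK1+ mesoderm, and SCL is needed for all blood formation.

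Values were CPM (read counts scaled to library size by the authors), and the reads on listed genes numbered between 38623641 and 47621120 per library. Every member was well measured, from 735 reads for Alas1 in its lowest library to 18560 reads for Tfrc in its highest. Counting error therefore contributed at most 3.69% (the relative error of 735 reads) to a member's value in any library. Tal1, the targeted gene, had 182 to 306 CPM in the WT libraries and 5.68 to 9.35 CPM in the Scl-/- libraries. Kdr, which encodes FLK1, was at 832 to 868 CPM in WT and 724 to 810 CPM in Scl-/-, and was not called. In the tests below, a gene was called at a Benjamini-Hochberg adjusted p under 0.05 from limma on log2(CPM + 0.5), fitted on all 13991 genes that passed the filter on low values, all 9 members among them. The main fit held the genotype alone, and a second fit added the replicate number as a block. Fold changes are Scl-/- against WT on that log2 scale, with the standard error (SE). In these bulk samples, fewer cells of a type and less RNA per cell cannot be told apart.

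Of the 9 members, 1 was called in the fit with genotype alone, Abcb10, which was lower in Scl-/-. Of all genes tested, 2.38% were called in that fit, 1.59% being lower and 0.793% higher in Scl-/-. With the replicate block 3 members were called, Abcb10, Fech and Ppox, all lower, where 24.2% of all genes were called, 12.2% lower and 12.0% higher. The WT and Scl-/- libraries did not overlap for 2 members, Abcb10 and Fech, both lower, where 21.6% of all genes did not overlap in either direction and 10.7% were lower without overlap. The median log2 fold change of the 9 members was -0.07, and that of all genes was 0.01. The remaining 6 members were called in neither fit.

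**Figure D1:**
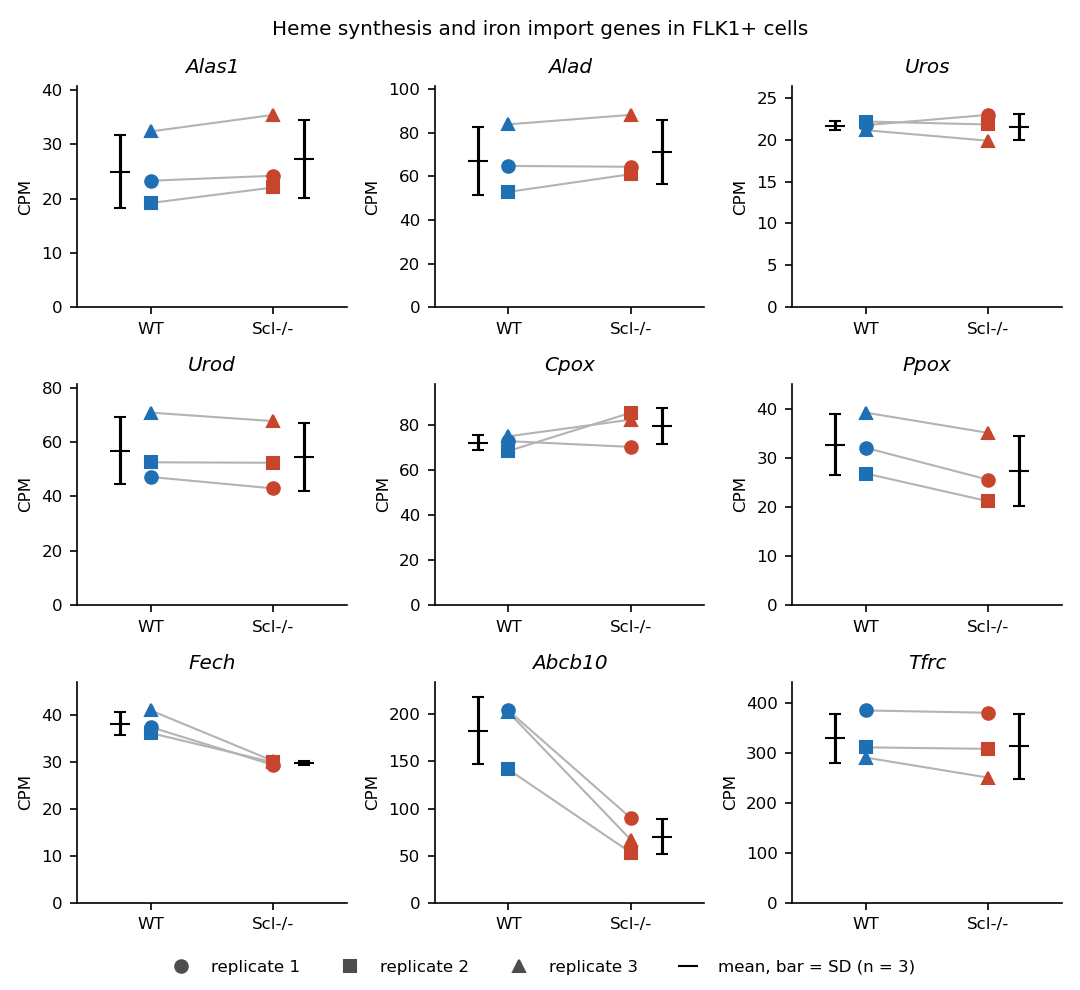
CPM (vertical axes, each from 0) of the 9 genes in the 3 WT (blue) and 3 Scl-/- (red) libraries, with grey lines joining libraries of the same replicate number and black bars giving the mean and SD of each group. Abcb10 and Fech are the 2 genes whose groups do not overlap, and the lines of Ppox, Urod and Tfrc also run downwards in all 3 pairs.

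ABCB10 sits in the inner mitochondrial membrane, is induced during erythroid maturation and is required for normal heme synthesis in red cell precursors. The gene lies on the minus strand of chromosome 8, chr8:126476359-126507022 in mm9. It was at 204, 142 and 202 CPM in WT replicates 1 to 3 and at 89.8, 53.2 and 66.8 CPM in Scl-/- replicates 1 to 3. The highest Scl-/- library was thus well below the lowest WT library, and replicate 2 was the lowest in both genotypes. The Scl-/- mean of 69.9 ± 18.5 CPM (SD, n = 3) was 38.3% of the WT mean of 183 ± 35.6 CPM (SD, n = 3). The log2 fold change was -1.39 (SE 0.22), with a limma adjusted p of 0.0236 without and 5.7e-05 with the replicate block. Within the pairs of libraries with the same number it was -1.18, -1.40 and -1.59. Leaving out 1 library at a time gave fold changes from -1.59 to -1.21, and the call was lost without WT replicate 1 (limma adjusted p 0.155), WT replicate 3 (0.0886), Scl-/- replicate 2 (0.0708) or Scl-/- replicate 3 (0.0742). With the block, Abcb10 remained called when both libraries of any replicate number were left out.

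Markers of blood and vessel cells were lower in Scl-/-, as Abcb10 was. Of all genes, 1.59% were called lower without and 12.2% with the block, and 10.7% were lower without overlap. Called higher were 0.793% of all genes without and 12.0% with the block. Of 19 erythroid markers 5 were in the table, Alas2 among them, of which 2 were called lower without and 5 with the block. Their summed level was 22.2 to 47.9 CPM in WT and 13.2 to 15.7 CPM in Scl-/-. Of those, Gata1, the erythroid GATA factor, was at 3.29 to 10.5 CPM in WT and 0.145 to 0.225 CPM in Scl-/-, and the embryonic globin Hbb-bh1 was at 0.601 to 1.94 CPM in WT and listed at 0 in all 3 Scl-/- libraries. The 6 haematopoietic markers in the table, of 8 listed, were all called lower in both fits and summed to 286 to 445 CPM in WT and 52.0 to 102 CPM in Scl-/-. Of the 8 endothelial markers 3 were called lower without and 8 with the block, 5 of them without overlap between the groups, and they summed to 314 to 621 CPM in WT and 122 to 195 CPM in Scl-/-. Markers of other mesoderm went the other way in part. Of the 7 FLK1+ mesoderm markers, which include Tal1, 1 was called higher and 1 lower without the block and 4 higher and 2 lower with it, and they summed to 1911 to 2055 CPM in WT and 1788 to 2336 CPM in Scl-/-. Of the 7 cardiac markers in the table, of 9 listed, limma called none without the block and 4 higher with it. Without the block 3 passed 0.05 before adjustment, and the share of all genes at that level was not computed. Cardiac markers summed to 759 to 809 CPM in WT and 830 to 954 CPM in Scl-/-, and 3 had fold changes below 0. Of the 4 paraxial markers in the table, of 6 listed, 2 were called higher with the block and 2 lay below 0. With the block, 1 of 6 pluripotent markers was called lower and 2 higher, and 1 of 2 endoderm markers in the table lower. The part of these cell types in the Abcb10 result was not tested.

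The 5 genes whose pattern over the 6 libraries was most like that of Abcb10 were Zfp185, Frmpd1, Rtn4rl1, Ets1 and Add2. Likeness was the root mean square difference of centred log2 values among the 13954 genes averaging 1 CPM or more, and ranged from 0.05 for Zfp185 to 0.12 for Add2. Ets1, an ETS transcription factor of endothelial and blood cells, was the most abundant of them, at 123 to 181 CPM in WT and 45.5 to 62.7 CPM in Scl-/-. In Scl-/-, Frmpd1 at 0.411 to 0.902 CPM and Add2 at 0.290 to 0.533 CPM were near the 0.5 CPM added before taking logs. The differences of Frmpd1 and Add2 are therefore understated on that scale. Because the measure follows the difference between the genotypes, the 5 genes share that difference by construction.

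The promoter windows of Abcb10, the only member called in both fits, and Cpox, whose window holds the GATA factor hexamer TGATAA, are shown for comparison. GATA1 and SCL often bind together at erythroid genes, GATA1 through a GATA core. Each sequence is the 250 bases before the RefSeq gene start on the gene's strand (from GRCm38.p6, placed in mm9 by an exact match), and capitals mark GATA or its reverse complement TATC.
Abcb10, chr8:126507023-126507272, minus strand: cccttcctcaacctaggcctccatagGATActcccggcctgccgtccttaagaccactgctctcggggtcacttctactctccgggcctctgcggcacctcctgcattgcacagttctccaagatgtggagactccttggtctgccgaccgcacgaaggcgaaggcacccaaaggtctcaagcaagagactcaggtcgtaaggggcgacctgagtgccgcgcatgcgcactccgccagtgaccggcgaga
Cpox, chr16:58670071-58670320, plus strand: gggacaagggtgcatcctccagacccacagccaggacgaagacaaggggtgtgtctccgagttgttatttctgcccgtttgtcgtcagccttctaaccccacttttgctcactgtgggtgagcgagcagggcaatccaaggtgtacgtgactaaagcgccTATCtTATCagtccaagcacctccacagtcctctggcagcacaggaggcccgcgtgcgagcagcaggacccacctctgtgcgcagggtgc

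The Abcb10 window held 1 GATA, and 53.6% of all 32851 windows held at least 1 on either strand. It held neither AGATAA nor TGATAA, hexamers that include this core. The forms AGATAG and TGATAG were not counted, although the Cpox window as printed holds an AGATAG on the strand opposite to the gene. A window was available for 8 members, Fech being the member without one. Of these 8, only Cpox and Uros had a TGATAA, 1 each, and none had AGATAA. Among all windows, 16.6% had one or the other. The E-box letters CAGATG and CAGCTG, tested because SCL dimers bind E-boxes, were each found once in the Urod window and in no other member's, against 14.4% and 13.0% of all windows. These are matches of letters and no evidence of binding.

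Among the synthesis enzymes, those of the early and middle steps had similar levels in both genotypes, with overlapping groups. Alas1, the first and rate-limiting enzyme outside the erythroid lineage (chr9:106135786-106150457, minus strand), was at 23.3, 19.2 and 32.4 CPM in WT and 24.2, 22.1 and 35.4 CPM in Scl-/-. Its log2 fold change was 0.13 (SE 0.24), with limma adjusted p values of 0.885 without and 0.315 with the block. Alas1 was higher in Scl-/- in 3 of 3 pairs, but by far less than the libraries of a genotype differed among themselves, which was 0.74 in WT and 0.67 in Scl-/- on the log2 scale. An antisense long non-coding RNA, 4930500F10Rik, overlaps its exons, and as the strand setting of the counting is not given, reads of both cannot be told apart.

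Alad, which condenses aminolevulinate to porphobilinogen (chr4:62170203-62180952, minus strand), was at 64.8, 52.9 and 83.8 CPM in WT and 64.4, 61.0 and 88.2 CPM in Scl-/-. In each genotype replicate 3 was the highest, and the genotypes overlapped. Its log2 fold change was 0.09 (SE 0.20), with limma adjusted p values of 0.909 without and 0.401 with the block. Uros, which closes the porphyrin ring (chr7:140877926-140901755, minus strand), varied least, with 21.7, 22.2 and 21.1 CPM in WT and 23.0, 21.8 and 19.9 CPM in Scl-/-. Its log2 fold change was -0.01 (SE 0.11) with a 95% interval from -0.28 to 0.26.

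Urod, the last cytosolic enzyme (chr4:116662570-116667018, minus strand), was at 47.2, 52.6 and 70.9 CPM in WT and 43.0, 52.4 and 67.8 CPM in Scl-/-. Both genotypes spanned nearly the same range, with replicate 1 lowest and replicate 3 highest, and the log2 fold change was -0.07 (SE 0.21). Cpox, which makes protoporphyrinogen in the intermembrane space (chr16:58670321-58680504, plus strand), was at 73.0, 68.6 and 75.1 CPM in WT and 70.4, 85.6 and 82.5 CPM in Scl-/-. It was higher in Scl-/- in 2 of 3 pairs, with the groups overlapping through Scl-/- replicate 1, and its log2 fold change of 0.13 (SE 0.11) was not called in either fit (limma adjusted p 0.614 and, with the block, 0.277).

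The last 2 enzymes were both lower in Scl-/-, and only the fit with the replicate block called them. Fech, ferrochelatase, which inserts ferrous iron into protoporphyrin (chromosome 18), was at 37.4, 36.1 and 40.9 CPM in WT and 29.3, 29.9 and 30.1 CPM in Scl-/-. Every Scl-/- library was below every WT library. The Scl-/- mean was 78.1% of the WT mean and the log2 fold change was -0.35 (SE 0.10), with limma adjusted p values of 0.138 without and 0.0151 with the block. The blocked call was lost without the libraries of replicate 2 (limma adjusted p 0.0779) or replicate 3 (0.0915).

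Ppox, protoporphyrinogen oxidase, the step before FECH, lies on the minus strand of chromosome 1 (chr1:173206121-173211317) and was at 32.0, 26.8 and 39.2 CPM in WT and 25.5, 21.1 and 35.1 CPM in Scl-/-. The groups overlapped, but Scl-/- was the lower library in 3 of 3 pairs, as it also was for Urod and Tfrc, called in neither fit. The log2 fold change of Ppox was -0.27 (SE 0.22 without and 0.08 with the block). The limma adjusted p was 0.608 without and 0.0465 with the block, and the blocked call was lost when the libraries of any 1 replicate number were left out (0.0905 to 0.250). Over the 789 genes tested on chromosome 1 the median difference was -0.29 on the log2 scale, about the size of the Ppox difference. With the median of each chromosome removed from each library, the log2 fold change of Ppox was 0.014 (limma adjusted p 0.992, and 0.924 with the block). Ppox shares exon sequence with the antisense gene B4galt3, whose log2 fold change was 0.06 (limma adjusted p 0.935).

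**Figure D2:**
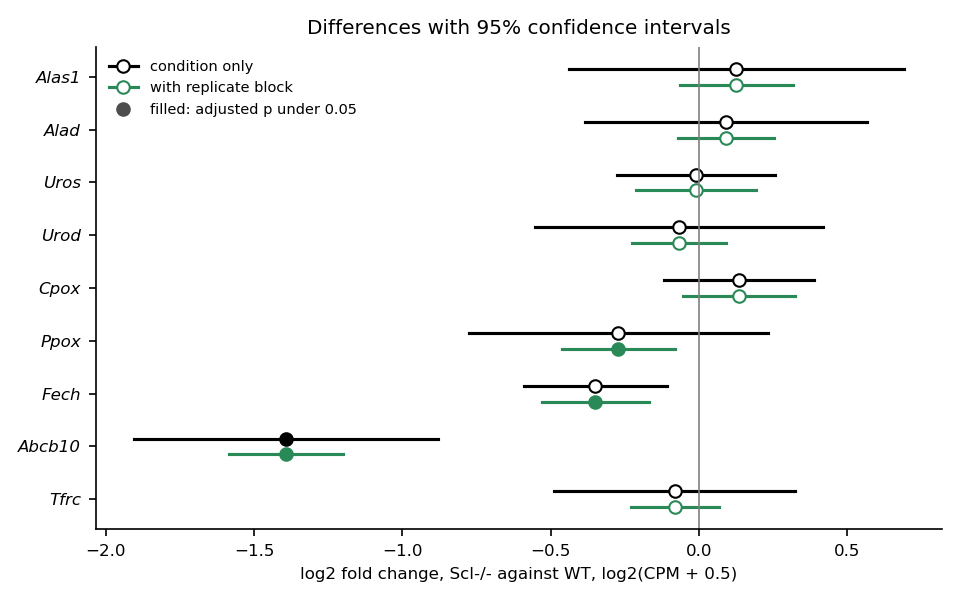
Log2 fold change of each gene (Scl-/- against WT, horizontal axis) with its 95% confidence interval in the fit with genotype alone (black) and with the replicate block (green), filled where the adjusted p was under 0.05. Abcb10 at -1.39 stands apart from the other 8, which lie between -0.35 and 0.13.

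TFRC, the receptor that carries iron-loaded transferrin into the cell (chr16:32609006-32632880, plus strand), was the most abundant of the 9. Tfrc was at 385, 311 and 291 CPM in WT and 380, 308 and 250 CPM in Scl-/-. The 2 genotypes were almost equal in replicates 1 and 2, and replicate 1 stood further above the other numbers in each genotype than the genotypes stood apart in any pair. The log2 fold change was -0.08 (SE 0.17), with a 95% interval from -0.49 to 0.32, or -0.23 to 0.07 with the block. For the 6 members called in neither fit, the 95% intervals with the block reached at most 0.32 from 0, and those without it at most 0.69, so differences of that size could not be told from none.

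For 6 of the 9 members (Alas1, Alad, Uros, Urod, Ppox and Tfrc) the spread within each genotype, from the lowest to the highest library on the log2 scale, exceeded the difference between the genotypes. Alas1, Alad, Urod, Ppox and Fech, 5 of the 9, were highest in replicate 3 in both genotypes, whereas Tfrc and Abcb10 were highest in replicate 1 in both. The order of the 3 replicate numbers was the same in both genotypes for 6 of 9 members (66.7%), and for 42.8% of all genes tested.

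**Figure D3:**
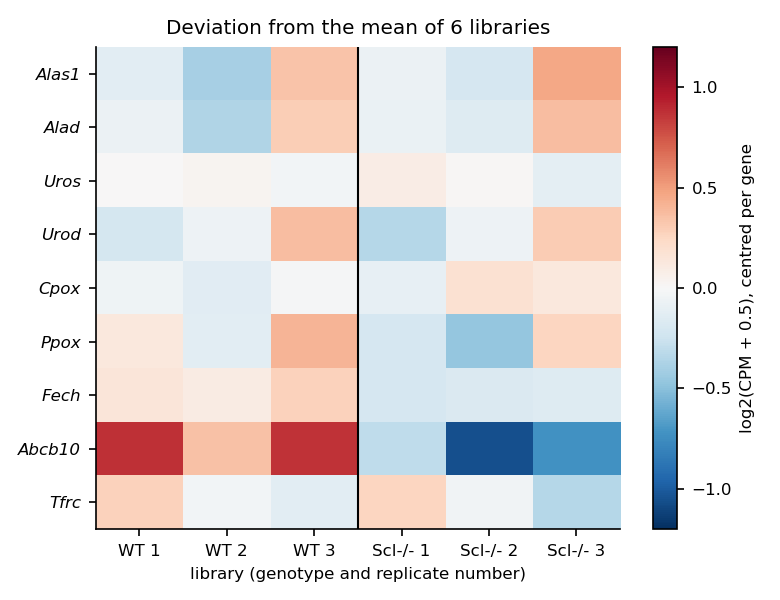
Log2(CPM + 0.5) of each gene (rows) in each library (columns), as the deviation from the gene's mean over the 6 libraries, red above and blue below. Abcb10 runs from 0.88 in WT replicate 1 to -1.05 in Scl-/- replicate 2, while Alas1, Alad and Urod are red in replicate 3 of both genotypes.

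Levels of different genes were compared as CPM per kilobase of annotated exon. In WT the order was Tfrc (53.2 ± 8.03, SD, n = 3), Abcb10 (42.4 ± 8.28), Alad (35.9 ± 8.35), Cpox (22.7 ± 1.05), Urod (22.0 ± 4.80), Fech (13.1 ± 0.86), Ppox (7.23 ± 1.38), Uros (6.06 ± 0.15) and Alas1 (5.79 ± 1.57). The library ranges of neighbours overlapped from Tfrc to Alad, between Cpox and Urod, and from Ppox to Alas1, whereas Alad and Cpox, Urod and Fech, and Fech and Ppox did not overlap. In Scl-/- Abcb10 was at 16.2 ± 4.30 CPM per kilobase and stood at rank 5, below Urod at 21.0 ± 4.83, with which it overlapped. The other members spanned the same levels in Scl-/-, from Tfrc at 50.6 ± 10.5 to Uros at 6.02 ± 0.44. The order depends on the exon length used, and with the longest annotated transcript as the length Urod stood above Alad in WT and Ppox was the lowest.

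**Figure D4:**
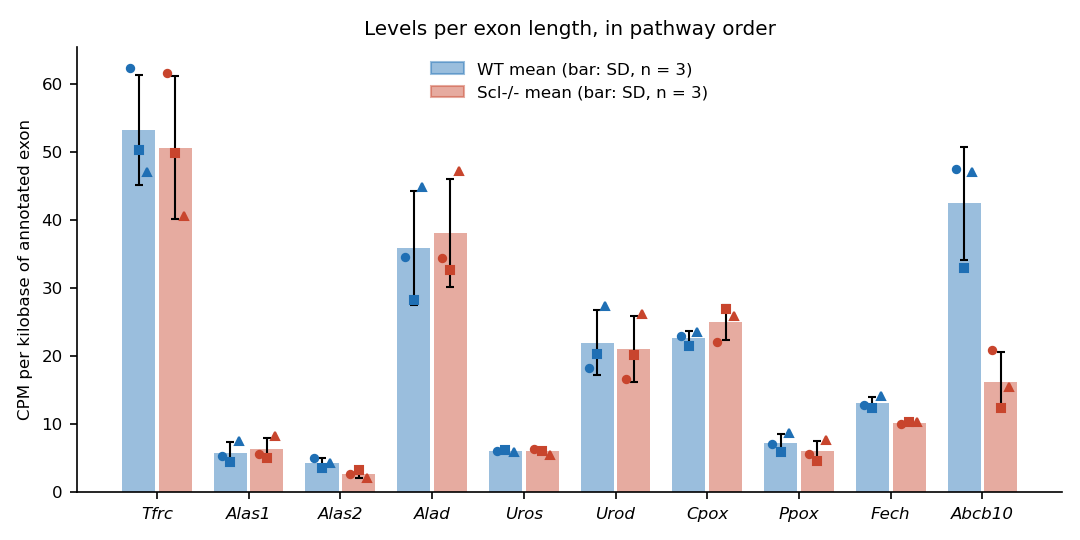
Level per kilobase of annotated exon (vertical axis, from 0) in pathway order, from iron uptake through the enzymes to Abcb10, with Alas2 added from the wider list, as bars for the mean, error bars for the SD and points for the 3 libraries of WT (blue) and Scl-/- (red). Alas1 at 5.79 and Uros at 6.06 in WT are the lowest of the members and Tfrc at 53.2 the highest.

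Alas2, the erythroid form of the first enzyme, was at 12.3, 8.65 and 10.3 CPM in WT and 6.44, 8.05 and 5.10 CPM in Scl-/-, without overlap. Per kilobase of exon Alas2 was at 4.33 CPM in WT, near the 5.79 CPM of Alas1, and at 2.72 CPM in Scl-/-. Its log2 fold change was -0.64 (SE 0.21), with limma adjusted p values of 0.173 without and 0.0330 with the block, and 1 of the 3 fits that left out a replicate number kept the blocked call.

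A wider list of 64 other genes of heme and iron handling was set beside the members, of which 56 were in the table and were tested. Of these, 3 were called without the block (5.36%, against 2.38% of all genes), Fam210b and Slc39a8 lower and Fdxr higher in Scl-/-. With the block 12 were called (21.4%, against 24.2% of all genes), 10 lower and 2 higher. The median log2 fold change of the 56 was -0.02.

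Of the 13 genes for mitochondrial supply and porphyrin transport, 1 was called without and 3 (23.1%) with the block, all lower, a share near the 24.2% of all genes. Fam210b, a mitochondrial protein linked to iron supply in erythroid cells, was at 36.7, 22.9 and 34.1 CPM in WT and 12.9, 14.8 and 14.3 CPM in Scl-/-, with no overlap. Its log2 fold change was -1.10 (SE 0.19, limma adjusted p 0.0314), and the call without the block remained in 1 of 6 fits that left out a library, the one without WT replicate 2. Slc25a37, mitoferrin 1, the mitochondrial iron importer of erythroid cells that ABCB10 is known to stabilize, was at 50.2 to 59.2 CPM in WT and 33.6 to 54.0 CPM in Scl-/-. It overlapped between the groups, with a log2 fold change of -0.37 (limma adjusted p 0.352 without and 0.0250 with the block). Leaving out 1 library gave -0.56 to -0.22, and the blocked call remained in 1 of the 3 fits that left out a replicate number. Abcb6, a porphyrin transporter on chromosome 1, had a log2 fold change of -0.52 and was called in the blocked fit (limma adjusted p 0.00207), and no longer with chromosome medians removed (0.0508). Slc25a38, the mitochondrial glycine carrier, ran the other way at 0.23 without a call (limma adjusted p 0.341 without and 0.0764 with the block).

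Of the 9 genes for iron uptake and recycling, 1 was called without and 2 (22.2%) with the block, all lower, a share near the 24.2% of all genes. Slc39a8, a metal ion importer of the ZIP family, was at 60.3, 52.0 and 64.5 CPM in WT and 25.3, 31.9 and 24.9 CPM in Scl-/-. The groups were well apart, with a log2 fold change of -1.09 (SE 0.14) and a limma adjusted p of 0.0108, which rose past 0.05 without WT replicate 1 or WT replicate 3 (at most 0.0943). Slc11a2, which moves iron out of the endosome after TFRC uptake, had a log2 fold change of 0.07 (SE 0.11) and was not called.

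Of the 8 genes for iron storage, export and sensing, none was called by limma without the block. In that fit 1 passed 0.05 before adjustment, and the share of all genes at that level was not computed. With the block 2 (25.0%, against 24.2% of all genes) were called, Fth1 and Slc40a1, both lower. Fth1, the ferritin heavy chain, was at 505, 410 and 690 CPM in WT and 337, 294 and 384 CPM in Scl-/-, without overlap. Its log2 fold change was -0.63 (SE 0.20), with limma adjusted p values of 0.154 without and 0.00126 with the block. Ftl1, the ferritin light chain, was at 411 to 547 CPM in WT and 365 to 519 CPM in Scl-/- and was not called. Both ferritin genes have near-identical processed copies, and how reads between the copies were counted is not given, which leaves their values uncertain. Slc40a1, ferroportin, the iron exporter, was low at 2.85 to 5.17 CPM in WT and 1.67 to 4.15 CPM in Scl-/-, and its blocked call (limma adjusted p 0.0377) was lost with chromosome medians removed (0.246) and when any 1 replicate number was left out. The iron regulatory proteins Aco1 and Ireb2 had log2 fold changes of 0.12 and 0.11, called in neither fit.

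Of the 8 genes for heme export, import and breakdown, limma called none without the block. In that fit 1 passed 0.05 before adjustment, and the share of all genes at that level was not computed. With the block 1 was called (12.5%, against 24.2% of all genes), Slc48a1, a heme transporter of endosomes and lysosomes. It was at 11.8, 9.72 and 14.6 CPM in WT and 5.64, 4.18 and 6.69 CPM in Scl-/-, with no overlap and a log2 fold change of -1.07 (limma adjusted p 0.0581 without and 0.000653 with the block). Hmox1, the inducible heme oxygenase, was not called (-0.05, SE 0.12). Of the 7 genes for synthesis control and chaperones, 2 (28.6%, against 24.2% of all genes) were called once the block was added, Bach1 (-0.23) and Pgrmc2 (0.22). Both calls were lost when any 1 replicate number was left out (limma adjusted p at most 0.117 and 0.206).

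Of the 10 genes for iron-sulfur cluster assembly, 1 (10%) was called in each fit, against 2.38% of all genes without and 24.2% with the block. In both fits this was Fdxr, the reductase that passes electrons to ferredoxin. It was at 11.3, 12.6 and 12.2 CPM in WT and 19.0, 26.6 and 25.7 CPM in Scl-/-, a log2 fold change of 0.94 (SE 0.16, limma adjusted p 0.0299). Fdxr lies on chromosome 11, where the median difference over 1211 genes was 0.31 on the log2 scale. With chromosome medians removed its log2 fold change was 0.63, with a limma adjusted p of 0.0518 without and 0.00308 with the block. The call without the block remained in 1 of 6 fits that left out a library, the one without Scl-/- replicate 1.

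**Figure D5:**
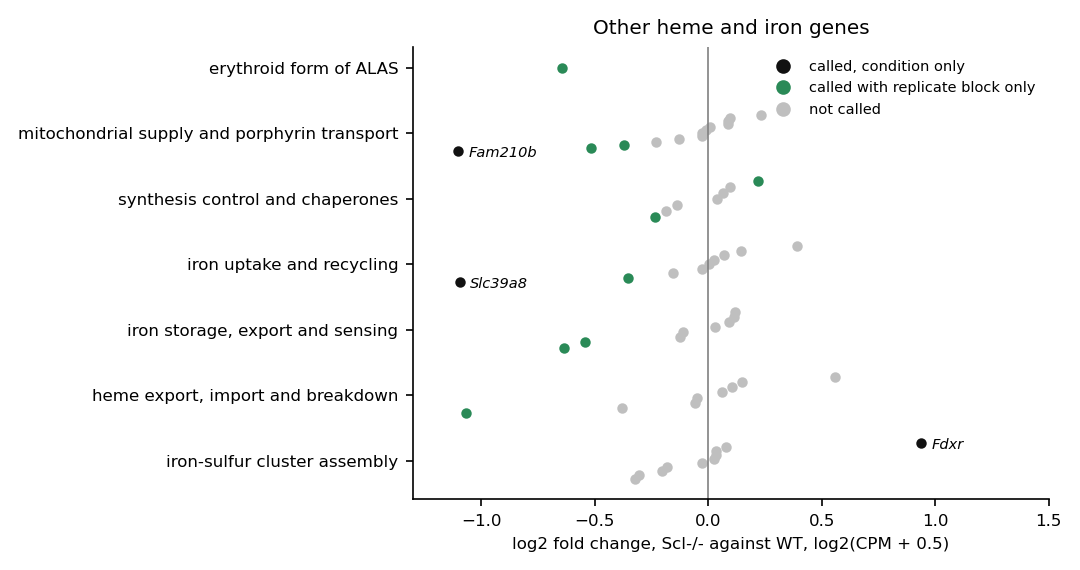
Log2 fold change (Scl-/- against WT, horizontal axis) of the 56 other heme and iron genes by functional group (rows), black where called with genotype alone, green where called with the replicate block only and grey where not called. Most genes lie near 0. Fam210b at -1.10, Slc39a8 at -1.09 and Slc48a1 at -1.07 (called with the block only) lie furthest to the left and Fdxr at 0.94 to the right.

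The RNA of Tfrc and of 4 genes of the wider list held matches to a pattern of iron-responsive elements (IREs). IREs are hairpins bound by the iron regulatory proteins when iron is scarce. Binding in the 3′ untranslated region protects Tfrc mRNA from decay, and binding in the 5′ untranslated region holds back translation of ferritin, ferroportin and ALAS2. They are shown because only the Tfrc elements are known, of those listed, to act on the mRNA level measured here. The search, made after the values had been seen, looked for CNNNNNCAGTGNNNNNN with all 5 stem pairs formed (G-U pairs allowed) in the longest coding transcript of each gene on the sense strand, which held a match for 257 of 22754 genes (1.13%). Elements of another form or in another transcript would be missed, so a gene without a match may still carry one. Capitals mark the CAGTG of the loop, and positions are in mm9.
Tfrc 3′, chr16:32631311-32631327, plus strand: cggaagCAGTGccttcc
Tfrc 3′, chr16:32631690-32631706, plus strand: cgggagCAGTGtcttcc
Tfrc 3′, chr16:32631755-32631771, plus strand: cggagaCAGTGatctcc
Tfrc 3′, chr16:32631802-32631818, plus strand: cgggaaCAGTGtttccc
Fth1 5′, chr19:10057228-10057244, plus strand: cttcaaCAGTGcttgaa
Ftl1 5′, chr7:52715155-52715171, minus strand: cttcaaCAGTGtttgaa
Slc40a1 5′, chr1:45982316-45982332, minus strand: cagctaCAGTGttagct
Alas2 5′, chrX:146982007-146982023, plus strand: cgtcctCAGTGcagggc

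Tfrc was the one gene with several matches, 4 in all, and its log2 fold change was -0.08. The genes with a 5′ element had log2 fold changes of -0.63 (Fth1), -0.54 (Slc40a1), -0.64 (Alas2) and -0.12 (Ftl1), and none of them was called without the block. With the block Fth1, Slc40a1 and Alas2 were called lower (limma adjusted p 0.00126, 0.0377 and 0.0330) and Ftl1 was not. The blocked call of Slc40a1, on chromosome 1, was lost with chromosome medians removed (limma adjusted p 0.246). As this group was put together after the values had been seen, no count over it is given.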

How the data were processed

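FLK1+ cells of day 3.5 EBs gave 3 WT and 3 Scl-/- libraries. Per the submitters' notes, TopHat2 2.0.8b mapped reads to mm9. The authors used SAMtools 0.1.19, removed duplicate pairs, filtered on mapping quality, normalized with edgeR's TMM method and deposited CPM values. The counting tool and annotation are not given in the sources used here. Duplicate removal can hold down abundant genes such as Tfrc and Fth1. Every CPM value was a whole multiple (tolerance 0.001 reads) of one step per library, which gave the reads. A count model was not run on these reads, because the check set for doing so needs more low values than the table lists. A floor of 3 reads is 0.0615 to 0.0784 CPM, for counting error only.

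Tests covered the 13991 of 14005 genes that reached 0.5 CPM in 3 libraries or more. limma 3.58.1 in R 4.3.3 (lmFit, eBayes with an intensity trend, two-sided) compared the genotypes on log2(CPM + 0.5), a scale that understates changes of low genes, with Benjamini-Hochberg adjustment over all genes tested. Replicate numbers come from the labels and the design names independent differentiations. Deviations from the genotype means correlated at 0.588, 0.756 and 0.748 between same-numbered libraries, so the numbers were read as pairs. Between other libraries they correlated at -0.621 to -0.100. As deviations were taken within each genotype, these negative values follow on average from the positive ones and add no support. The fit with the replicate block is given where it changes a call. That separate cultures stand behind the numbers is known only from the design text.

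Exon lengths and positions are from GENCODE M1 on mm9, and promoter windows from RefSeq (GRCm38.p6). Members and lists were chosen with earlier results of these data known. Named are all members, the wider-list genes called without the block, the 6 largest of those called with the block only, 10 fixed genes (Alas2, Slc25a37, Slc25a38, Slc11a2, Fth1, Ftl1, Slc40a1, Hmox1, Aco1 and Ireb2), and the 5 genes most like Abcb10. Bach1, Pgrmc2 and the markers printed singly were chosen after their values were seen. Flvcr1 was not analysed here, and 1 listed gene is not reported here. Python 3.11.15, NumPy 2.4.6, SciPy 1.17.1, pandas 2.3.3 and Matplotlib 3.10.9 were used. Alternatives were no filter, a filter at a mean of 2 CPM, pseudocounts of 0.1 and 1, the block, left-out libraries and pairs, 2 rescalings, no trend, a fold threshold of 0.48, chromosome medians removed and another exon length.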

Additional observations from a re-analysis of the deposited data

How the results depend on the processing

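The log2 fold change of Abcb10 kept its sign under every alternative run, and its call under all but 4 of the fits that left out a library. The replicate block raised the genes called from 333 to 3385 among all genes, from 1 to 3 among the members and from 3 to 12 in the wider list. With chromosome medians removed and the block, these counts were 2641, 2 and 11. Leaving out 1 library gave 34 to 384 genes, 0 to 1 members and 0 to 2 genes of the wider list. Leaving out both libraries of a replicate number, with the replicate block, gave 3626, 1194 and 1564 genes, 2, 1 and 1 members, and 10, 7 and 6 genes of the wider list for numbers 1, 2 and 3. Fits that leave out a library have less power by construction. Ppox changed sign to 0.014 with chromosome medians removed, without and with the block. Members near 0 changed sign when 1 library was left out, with ranges of -0.073 to 0.26 for Alad, -0.076 to 0.33 for Alas1, -0.23 to 0.068 for Tfrc, -0.24 to 0.10 for Urod and -0.057 to 0.045 for Uros (0.027 for Uros with replicate 3 left out and the replicate block). With the longest annotated transcript as length, CPM per kilobase in WT and Scl-/- became 8.08 and 8.82 for Alas1, 9.90 and 9.84 for Uros, 38.2 and 36.5 for Urod, and 67.3 and 64.0 for Tfrc. Of the 180 results of members under alternatives, 159 kept direction and call. Those with the fold threshold reuse the main fit, so their direction is the same by construction. Other pseudocounts, filters, rescalings and the fit without a trend changed no member's direction or call.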
